A study of Mus musculus with 18 samples.

Results

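Oocytes from 6 libraries of primary follicles were compared with oocytes from 6 libraries of primordial follicles, with the growth condition as a covariate. These 12 libraries, of the 18 in the series, were chosen by the follicle stage in their labels, and the remaining libraries hold mature oocytes that were not used here. All libraries came from mice of the C57Bl/6j x CBA/J strain, and the labels name no mutation or drug. In the *in vivo* group the ovaries were not cultured and came from mice at an age of 14 days, whereas in the *in vitro* group the ovaries were taken at 7 days and cultured for 7 days. Each stage had 3 libraries per growth condition, made from oocytes that were cut out of fixed, paraffin-embedded sections by laser capture microdissection and pooled by stage.

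A primordial follicle holds a small dormant oocyte inside a layer of flattened pregranulosa cells, and at activation these cells become cuboidal while the oocyte starts to grow. Signalling through the KIT receptor, PI3K and AKT moves the transcription factor FOXO3 out of the oocyte nucleus, and mTOR promotes protein synthesis and growth. The growing oocyte lays down the zona pellucida, secretes GDF9 and BMP15 to the surrounding cells and stores RNA and protein for the embryo.

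The total read count per library ranged from 15149564 to 29205503, and reads are given here as deposited, without normalization. A gene counted as detected in a library above a floor of 3 reads. Primordial libraries held 5703 to 10240 detected genes (median 8056.5) and primary libraries 4842 to 11710 (median 9581.5), a mean difference of 1131 genes that did not pass an exact two-sided permutation test within growth conditions (p = 0.4, smallest possible 0.005). The Spearman correlation between libraries of a group was 0.483 to 0.776, against 0.460 to 0.649 between the stages of a growth condition. Of the 15317 genes tested, 2229 had at least 90% of their summed normalized level in 1 library. The floor covers counting error only, and ranges run from the lowest to the highest library. Nothing in the labels says that the libraries of a group came from separate animals, so p-values measure the spread between these libraries. In these pooled oocytes, fewer cells with a transcript and less transcript per cell cannot be told apart.

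Transcripts that define oocytes were present at both stages. *Ddx4*, an RNA helicase of germ cells, had 72 to 8944 reads in primordial and 1073 to 15606 in primary libraries, and 13 to 16 of 16 oocyte markers were detected in every library. Of the marker genes of other ovarian cells, *Fshr*, *Insl3*, *Flt1*, *Ptprc*, *Adgre1* and *Cd3e* had no read in any of the 12 libraries. Other markers of these cells were present, with sums given in CPM (reads scaled to the normalized library size). For 10 stroma and fibroblast markers the sum was 1604 to 9878 CPM in primordial and 961 to 26007 CPM in primary libraries. For the granulosa and pregranulosa markers it was 101 to 3407 and 561 to 2957 CPM. The 16 oocyte markers summed to 265 to 1576 and 387 to 1432 CPM. The sums of the remaining lists are given below. The libraries labelled primordial *in vitro* 2 and primary *in vivo* 2 stood apart in the oocyte growth genes and in the smooth muscle and stroma markers. Results below that rest on these libraries are given with and without them. Other libraries held the highest sums of other lists. These were primary *in vivo* 1 for red blood cells (2474 CPM), primary *in vitro* 2 for surface epithelium (1855 CPM) and primordial *in vitro* 1 for endothelium (905 CPM).

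The library labelled primordial *in vitro* 2 held the oocyte growth genes at levels above those of the primary libraries. Over the 27 tested genes of a list of oocyte growth, secreted and coat protein genes, its summed level was 1359.7 CPM. It was 131 to 413 CPM in the other 5 primordial libraries and 273 to 751 CPM in the 6 primary libraries. Primordial *in vitro* 2 stood out gene by gene as well. It was the highest of the primordial libraries for 24 of these 27 genes (88.9%), against 16.9% of all genes tested. It was the highest of all 12 libraries for 16 of the 27 (59.3%), against 9.58% of all genes tested. The genes of oocyte identity were divided in it. *Dazl* (21420 reads) and *Nobox* (203 reads) were at their highest count of all 12 libraries there, as was *Figla* (37 reads) and, with 72 reads, *Sohlh1*, although in CPM *Figla* and *Sohlh1* were highest in primordial *in vivo* 3. In contrast, *Lhx8* (368 reads) was at its lowest and *Kit* (303 reads) and *Ddx4* (1749 reads) were each second lowest among the primordial libraries. The sum of the 16 oocyte markers, which include members of the growth list, was highest of the 12 libraries there (1576.4 CPM).

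The library labelled primary *in vivo* 2 held the markers of smooth muscle and stroma. The summed level of 6 smooth muscle and pericyte markers was 12836 CPM in it, against 0.409 to 222 CPM in the other primary libraries and 1.46 to 312 CPM in the primordial libraries. For 10 stroma and fibroblast markers the sum was 26007 CPM, against 961 to 5563 CPM in the other primary libraries and 1604 to 9878 CPM in the primordial libraries. *Acta2*, smooth muscle actin, had 240844 reads there. This library also had the lowest summed level of the oocyte growth list among the primary libraries, 273 CPM. The other cells' part in the stage differences was not tested, and the values without this library are given beside the groups concerned.

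No gene was called between the stages. With edgeR's quasi-likelihood test, 0 of 15317 genes (0%) reached a Benjamini-Hochberg adjusted p under 0.05 with a fold change of at least 2, and the smallest adjusted p was 0.206. Before adjustment, 2216 genes had p under 0.05, of which 1578 (10.3%) were estimated higher and 638 (4.17%) lower in primary follicles. Of all genes tested, 54.5% were estimated higher in primary follicles. The median log2 fold change over all genes tested was 0.24, and it ranged from 0.17 to 0.42 under other scalings. All log2 fold changes are primary over primordial and include this shift. DESeq2 with its default settings called 347 genes, 278 higher (1.81%) and 69 lower (0.45%), and gave no adjusted p for 7156 genes. The spread between libraries was large, with a common biological coefficient of variation of 2.14 and a median standard error (SE) of the log2 fold change of 1.88. The mean distance between libraries of different stages was 1.03 times that between libraries of the same stage within growth conditions (exact one-sided permutation test, p = 0.12, smallest possible 0.0025). Complete separation of the stages was rare, as all 6 primary libraries lay above all 6 primordial libraries for 22 genes (0.144%) and below them for 10 genes (0.0653%).

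**Figure D1:**
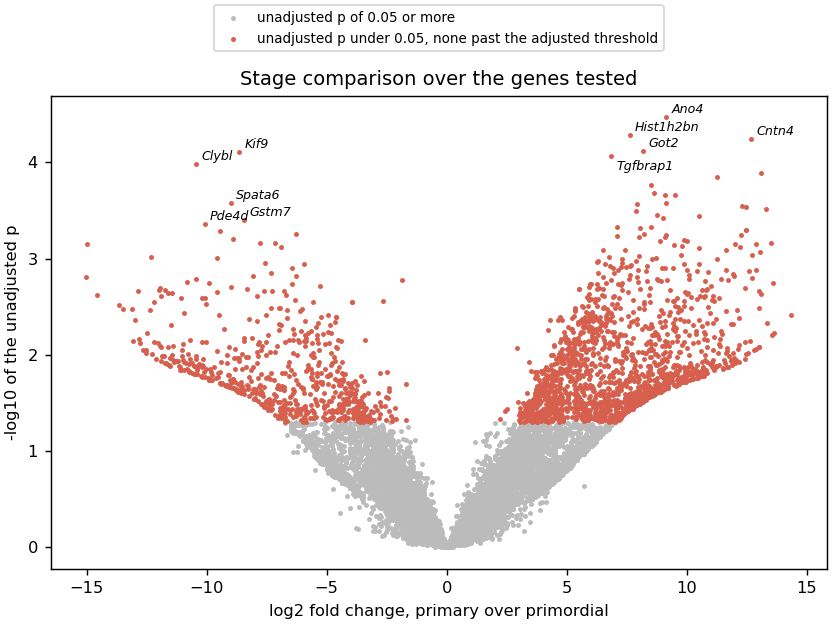
Log2 fold change of primary over primordial follicles (horizontal) against -log10 of the unadjusted p of edgeR's quasi-likelihood test (vertical), with 1 point per gene for the 15317 genes tested. Red points have p under 0.05, more of them on the right (1578) than on the left (638), and none passed the adjusted threshold.

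Among the genes estimated higher in primary follicles, those with the smallest p were near 0 in most primordial libraries and had high counts in several primary libraries. *Ano4*, a member of the anoctamin family of membrane proteins, had 0 to 31 reads (median 3) in primordial and 0 to 15988 reads (median 3933.5) in primary libraries, and its log2 fold change was 9.14 ± 1.98 (SE; edgeR adjusted p = 0.206). Only part of the primary libraries were high, and the groups overlapped. *Cntn4*, a contactin cell adhesion molecule at chr6:105677660-106699310 (mm10), had at most 2 reads in any primordial library. In primary libraries it had 1 to 8297 reads (median 1669), which is at least 918.5-fold higher on average than a floor of 3 reads per primordial library. *Gng3*, a G protein gamma subunit, had at most 1 primordial read and 2 to 8029 primary reads (median 2065), at least 780-fold higher. The groups did not overlap, although the lowest primary library was under the floor of 3 reads. Its exons share bases with *Bscl2* on the opposite strand, so its reads are uncertain. *Got2*, the mitochondrial aspartate aminotransferase, had 0 to 16 reads against 19 to 7126 (median 859.5), with no overlap between the stages. *Nudt21*, a subunit of the cleavage factor that selects polyadenylation sites, had 0 to 10 reads against 23 to 3121 and did not overlap either. *Hist1h2bn*, a replication-type histone H2B gene, had 0 to 218 reads (median 5) against 5 to 29626. *Tgfbrap1*, which binds TGF-β receptors, had 0 to 317 reads against 101 to 35505, with 84.5% of its summed level in 1 library. For *Shf* and *Slc35b3* that share was 96.6% and 96.8%.

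Genes estimated lower in primary follicles were mostly high in some primordial libraries and absent from others. *Kif9*, a kinesin motor, had 0 to 8039 primordial reads (median 2252.5) and 0 to 23 primary reads, and its log2 fold change was -8.64 ± 1.98 (SE; edgeR adjusted p = 0.206). In 5 of 6 primordial libraries it lay above every primary library, and the primordial *in vitro* 3 library had no read. *Clybl*, the mitochondrial citramalyl-CoA lyase, had 0 to 5028 primordial reads (median 2555) and 0 to 12 primary reads. It was absent from 2 primordial libraries, and 5 of 6 primary libraries had no read. *Spata6* had 0 to 6995 against 0 to 26 reads, *Snap91* 0 to 3770 against 0 to 36, and *Psd2* 0 to 4386 against 0 to 131. For *Pde4d*, a cAMP phosphodiesterase, 92.5% of the summed level came from 1 library, and for *Rrp7a* 91.5%. The 10 genes of this direction with the smallest p overlapped between the stages without exception.

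**Figure D2:**
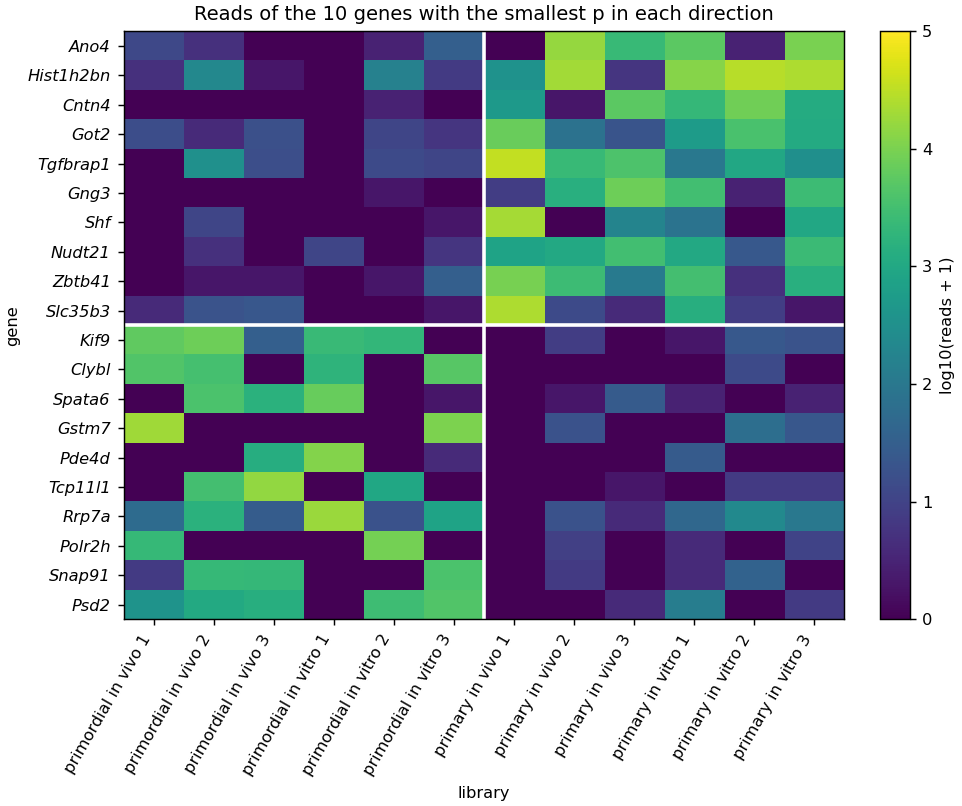
Colour gives log10(reads + 1) for the 10 genes with the smallest p in each direction (rows) in each of the 12 libraries (columns), with white lines between the stages and between the directions. In both directions single libraries lack the pattern of their stage, as *Kif9* in primordial *in vitro* 3 with 0 reads and *Cntn4* in primary *in vivo* 2 with 1 read.

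Detection gave a one-sided picture. Of 16641 genes detected in at least 1 library, 1869 were detected in all 12, and 25 were detected in every primary library and in at most 1 primordial library. No gene had the reverse pattern. With a looser limit of at least 5 libraries of one stage and at most 1 of the other, the counts were 149 and 11. Primary libraries had more detected genes on average, as given above, and the part of that difference in these counts was not tested. Detection in all 6 primary and no primordial library held for 3 genes, *Adgrd2-ps*, *Serinc4* and *Ell3*. *Adgrd2-ps*, an adhesion G protein-coupled receptor pseudogene at chr2:38671158-38687651, had no primordial read and 23 to 62 primary reads (median 40.5), at least 12.7-fold higher. *Serinc4*, of the serine incorporator family (chr2:121439059-121456781), had no primordial read and 6 to 26 primary reads, at least 5.495-fold higher. Both share exon bases with other genes, the former with *Gm13587* and the latter with *Ell3*, *Hypk* and *Serf2*, so their reads, and those of *Ell3*, an elongation factor gene that was named after its values were seen, are uncertain. *Mrpl52*, a mitochondrial ribosomal protein, had 19 to 1046 primary reads (median 348), and its primordial reads were 16 in *in vivo* 3 and 0 in the other libraries. *Cdo1*, cysteine dioxygenase, had 11 to 5496 primary reads and 150 reads in the library labelled primordial *in vitro* 2, with none in the other primordial libraries. *Dusp5*, a phosphatase of ERK kinases, had 10 to 768 against 0 to 11 reads, and *Mpdu1*, *Nbeal2* and *Ccdc92* had at most 14 reads in any primordial library.

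The genes of oocyte growth were estimated higher in primary follicles for most of the list, and the size of the difference depended on the library labelled primordial *in vitro* 2. With all 12 libraries, 23 of 27 tested genes were estimated higher, 0 had p under 0.05, and the median log2 fold change was 0.96. Without that library, 26 of 27 were estimated higher and the median was 2.20, against a median of 0.31 over all 15085 genes then tested. The library was singled out by the high values of these same genes, so the direction of that change was fixed by the choice, and the values without it are given here and below as a description, with no test. No gene of the list passed the adjusted threshold in either fit. With any other single library left out, the list's median was 0.34 to 1.30.

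*Gdf9*, the secreted growth factor of the TGF-β family that the oocyte sends to granulosa cells (chr11:53431023-53437904), had 135, 101 and 15 reads in the primordial *in vivo* libraries. In the primordial *in vitro* libraries it had 32, 7061 and 5 reads, and in primary libraries 1057 to 2206 (median 1339.5). Every primary library lay above 5 of the 6 primordial libraries and below the library labelled primordial *in vitro* 2. The log2 fold change was 1.81 ± 1.92 (SE; edgeR adjusted p = 0.729) with all libraries, and 4.79 ± 1.73 (SE) without that library. *Bmp15*, its X-linked partner (chrX:6314107-6320721), had 0 to 6 reads in the other 5 primordial libraries, 69 in primordial *in vitro* 2, and 0 to 97 (median 36) in primary libraries, where only *in vivo* 2 had none. *Fgf8*, an oocyte-secreted fibroblast growth factor, had no read in the other 5 primordial libraries and 1334 in primordial *in vitro* 2. Among primary libraries *Fgf8* had 1, 1 and 197 reads *in vivo* and 1352, 177 and 647 reads *in vitro*, so the high counts were not shared by all of them.

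**Figure D3:**
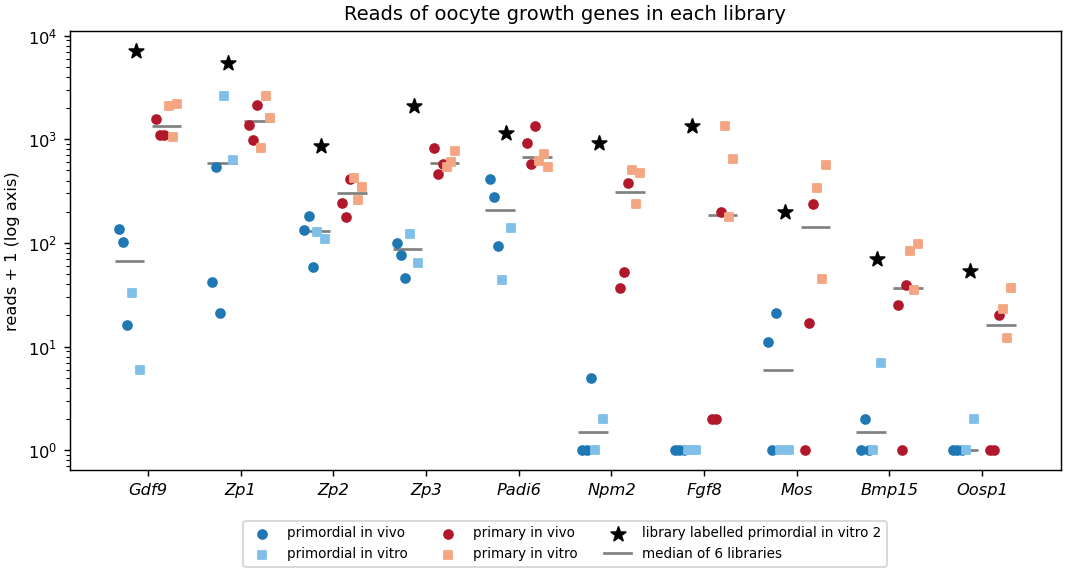
Reads + 1 on a log axis for 10 oocyte growth genes, with 1 symbol per library (blue primordial, red primary; circles *in vivo*, squares *in vitro*) and a line at the median of 6 libraries. The star is the library labelled primordial *in vitro* 2, which for *Gdf9* (7061 reads) and *Zp3* (2108 reads) lies above every other library, while the remaining primordial libraries lie below the primary ones.

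The zona pellucida genes differed among themselves. *Zp3*, which encodes a structural protein of the coat, had 45 to 121 reads in the other 5 primordial libraries, 2108 in primordial *in vitro* 2 and 465 to 817 in primary libraries. *Zp2* had 57 to 179, 860 and 178 to 419 reads in the same order, and *Zp1*, which cross-links the coat filaments, had 20 to 2599, 5427 and 826 to 2594. Primary libraries lay clear of the other 5 primordial libraries for *Zp3* only, since *Zp1* was also high in primordial *in vitro* 1 (2599 reads) and *Zp2* reached 179 reads in primordial *in vivo* 2, against 178 in the lowest primary library. Without primordial *in vitro* 2, *Zp3* had a log2 fold change of 2.72 ± 1.54 (SE), *Zp1* of 1.39 ± 1.72 and *Zp2* of 1.16 ± 1.42.

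Several other members of the list encode proteins that the oocyte stores for the embryo, and they differed in how far the stages lay apart. *Npm2*, nucleoplasmin, a histone chaperone of the egg, had 0 to 4 reads in the other 5 primordial libraries, 915 in primordial *in vitro* 2 and 36 to 503 (median 307) in primary libraries. Its log2 fold change was 2.62 (edgeR adjusted p = 0.594) with all libraries and 7.54 ± 2.33 (SE) without that library. It shares exon bases with *Xpo7* on the same strand. *Padi6*, a component of the cytoplasmic lattices, had 43 to 415, 1156 and 544 to 1350 reads in the same order, and *Tle6*, of the subcortical maternal complex, had 34 to 94, 331 and 102 to 241, both with their highest CPM in primary *in vivo* 3. The other members of that complex overlapped between the other 5 primordial and the primary libraries. *Nlrp5* had 47 to 674 reads in the other 5 primordial and 231 to 1030 in primary libraries, *Ooep* 10 to 55 and 13 to 85, and *Khdc3* 0 to 20 and 10 to 54. *Mos*, the kinase that holds the mature egg in meiotic arrest, had 0 to 20 reads in the other 5 primordial libraries, 199 in primordial *in vitro* 2 and 0 to 560 in primary libraries, again with overlap.

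For 5 of the 27 genes (*Gdf9*, *Fgf8*, *Zp3*, *Tle6* and *Npm2*) all primary libraries lay above all of the other 5 primordial libraries in CPM. With the same library left out this held for 71 of the 15085 genes tested (0.471%), and nothing is read from that share, since the library was chosen by the values of these genes. With no library left out, or with any other library left out, the number was 0 of 27. For *Fgf8* the separation rests on 1 read each in primary *in vivo* 1 and 2, under the floor of 3 reads, against 0. *Padi6* is not among the 5, although its reads did not overlap (43 to 415 against 544 to 1350), because its CPM did. *Zar1* and *H1foo* are maternal transcripts that are not among the 27 genes. *Zar1* was taken up after its values were seen. *H1foo* was named by the rule as a gene of the histone and chromatin list. The growth list held it as *H1f8*, a name that found no match, so it was not tested with that list. *Zar1*, a regulator of maternal RNA, had a highest primordial count of 2819 and a median of 2, against 85 to 1252 reads in primary libraries, and its log2 fold change was 3.07 with all libraries and 5.80 without primordial *in vitro* 2. *H1foo*, the linker histone of the oocyte, had 0 to 66 against 14 to 125 reads, and its log2 fold change was 2.35 with all libraries and 4.57 without that library.

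**Figure D4:**
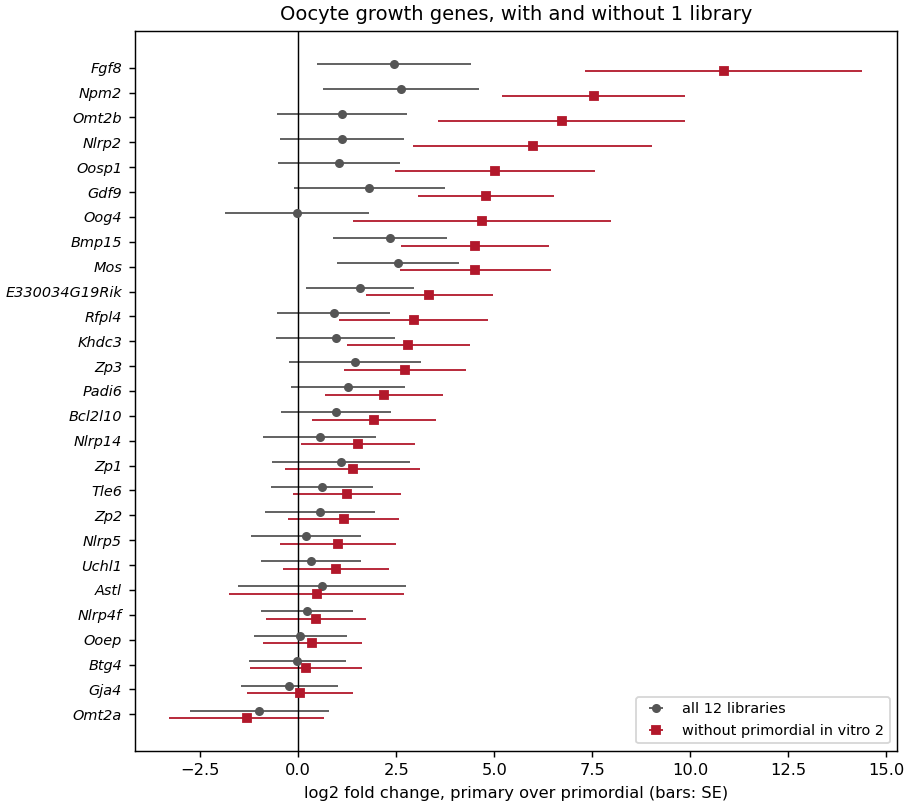
Log2 fold change of primary over primordial follicles with its SE for the 27 tested oocyte growth genes, over all 12 libraries (grey circles) and without the library labelled primordial *in vitro* 2 (red squares). The red estimates lie further right for most genes (median 2.20 against 0.96), with wide bars for genes such as *Fgf8* whose other primordial libraries had no read and whose estimate is therefore no bound.

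Only 1 gene of 15085 (0.00663%), *Tubb3*, met the call rule of edgeR without primordial *in vitro* 2. That library was singled out after its values were seen, and it alone of the primordial libraries had a high *Tubb3* count. The call is therefore given as a description, with no test. *Tubb3*, a beta-tubulin best known from neurons, had 0, 1, 8, 0 and 2 reads in the other 5 primordial libraries and 34275 in that one. In primary libraries it had 44154, 1 and 31700 reads *in vivo* and 10470, 6 and 23681 *in vitro*, so that 2 of 6 primary libraries were as low as the primordial ones. Its log2 fold change was 5.72 ± 4.64 with all libraries and 13.11 ± 2.15 (SE) without primordial *in vitro* 2. *Atp5g1*, a subunit of the ATP synthase ring, had 6532 to 96255 reads in primary libraries and 2798, 1411, 2, 0 and 20 in the other 5 primordial libraries, with 18008 in primordial *in vitro* 2. Its log2 fold change was 3.35 (edgeR adjusted p = 0.269) with all libraries and 6.93 without that one. *Tubb3* and *Atp5g1* were described because of these values.

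Genes of oocyte identity and RNA regulation were not shifted as a list over all 12 libraries, with 12 of 24 estimated higher, 12 lower and a median log2 fold change of 0.03. The growth conditions differed, with 12 higher and 12 lower *in vivo* but 5 higher and 19 lower *in vitro*. The *in vitro* median was -0.49, against 0.43 over all genes. Without primordial *in vitro* 2, 11 were estimated higher and 13 lower *in vitro*. *Patl2*, an oocyte factor in translational repression (chr2:122120108-122186189), had no primordial read and 1 to 227 primary reads (median 42), at least 18.7-fold higher. Every primary library lay above every primordial library, the lowest with 1 read, under the floor of 3 reads. Its log2 fold change was 8.92 ± 2.83 (SE; edgeR adjusted p = 0.214), the only one of the list with unadjusted p under 0.05. That p stayed under 0.05 without either library that stood apart. Among the transcription factors of the primordial oocyte, *Figla*, *Nobox*, *Sohlh1* and *Lhx8* had lower primary than primordial medians, whereas *Sohlh2* (medians of 6.5 reads in primordial and 10.5 in primary libraries) and *Taf4b* (7.5 and 58.5) had higher ones. *Figla*, which drives zona and primordial follicle genes, had 8 to 37 reads (median 20) against 1 to 15 (median 7), *Nobox* 10 to 203 (median 106) against 23 to 108 (median 41.5), and *Sohlh1* 0 to 72 (median 52.5) against 0 to 57 (median 6.5). Their log2 fold changes were -1.58 ± 1.14, -0.85 ± 1.24 and -1.87 ± 1.35 (SE), none with p under 0.05, and the stages overlapped in each. *Lhx8*, another of these factors, had 368 to 13862 against 2 to 1473 reads. The germ cell RNA-binding protein *Dazl* had 13 to 21420 reads in primordial and 4 to 8204 in primary libraries.

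In the PI3K, FOXO and mTOR list, 15 of 36 genes were estimated higher and 21 lower, with a median log2 fold change of -0.39. Those with p under 0.05 were 1 higher and 2 lower, against 10.3% and 4.17% of all genes, and none passed the adjusted threshold. *Rictor*, the scaffold of mTOR complex 2 (chr15:6708379-6800401), had 1229 to 33071 primordial reads (median 10288) and 7 to 5880 primary reads (median 1752.5), with a log2 fold change of -2.78 ± 1.09 (SE; edgeR adjusted p = 0.246). *Pdpk1*, the kinase that phosphorylates AKT, had 759 to 15496 against 7 to 2618 reads and -2.55 ± 1.24 (SE; edgeR adjusted p = 0.338). Most primary libraries had fewer reads of both genes than the primordial median, and the stages overlapped. *Eif4ebp1*, the translation repressor that mTOR phosphorylates, had 0 to 712 reads (median 2.5) against 0 to 2997 (median 1196) and 4.67 ± 2.30 (SE; edgeR adjusted p = 0.344). Without primary *in vivo* 2 the log2 fold changes were -2.58 for *Rictor*, -2.26 for *Pdpk1* and 5.47 for *Eif4ebp1*, and of these 3 genes *Rictor* alone had unadjusted p under 0.05. *Kit*, the receptor at the head of the pathway, had 155 to 5471 reads in primordial and 63 to 7123 in primary libraries.

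The TGF-β and BMP list had the largest number of higher estimates among the 3 signalling lists, 27 of 40, and a median log2 fold change of 1.41. Of its genes, 6 had p under 0.05 with a higher and 2 with a lower estimate, against 10.3% and 4.17% of all genes, and the higher count was 2 without primary *in vivo* 2, 4 without primary *in vitro* 1 or 3, and 9 without primordial *in vitro* 2, against 9.66% of all genes in that fit. That count of 9 includes *Gdf9*, 1 of the genes by which the library was singled out. *Skil*, a repressor of SMAD signalling, had 0 to 11 reads (median 0.5) in primordial and 0 to 796 (median 148.5) in primary libraries, with a log2 fold change of 6.03 ± 1.95 (SE; edgeR adjusted p = 0.214). *Id3*, a BMP target, had 0 to 206 against 3 to 2085 reads, *Smad7*, an inhibitory SMAD, had 0 to 483 against 0 to 2116, and *Bmp6*, a BMP ligand that oocytes make, had 0 to 157 against 0 to 2511. *Skil* and *Id3* kept unadjusted p under 0.05 without primary *in vivo* 2, whereas *Smad7* (log2 fold change 4.51 with all libraries and 2.81 without it) and *Bmp6* (3.73 and 2.92) did not. *Smad6*, the other inhibitory SMAD, was estimated lower, with 0 to 8789 against 0 to 452 reads, a median of 0 in primary libraries and a log2 fold change of -6.39 ± 2.25 (SE; edgeR adjusted p = 0.224). For *Bmp4*, 95.7% of the summed level was in 1 library, primary *in vivo* 2 with 851 reads.

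For the granulosa side of this pathway, *Inha*, the inhibin alpha subunit, had 0 to 946 reads (median 172) against 0 to 18330 (median 2755; edgeR adjusted p = 0.257). *Fst*, the activin antagonist follistatin, had 0 to 2014 (median 2.5) against 0 to 9134 (median 2510.5; edgeR adjusted p = 0.349). Both are products of granulosa cells. Over all genes tested, 54.5% were estimated higher and 10.3% had p under 0.05 with a higher estimate. Of 16 granulosa and pregranulosa markers tested, 13 were estimated higher in primary follicles, 2 of them with p under 0.05, and the median log2 fold change was 2.29. Without primary *in vivo* 2 these were 11, 1 and 1.52, and without primary *in vitro* 3 they were 11, 1 and 1.48. The number with p under 0.05 was 4 without primordial *in vitro* 2, primary *in vivo* 3 or primary *in vitro* 2, and 3 without primordial *in vivo* 1, primordial *in vitro* 3 or primary *in vivo* 1. Their summed level was 101 to 3407 CPM (median 968) in primordial and 561 to 2957 CPM (median 1169) in primary libraries, and in primary libraries 4 to 15 of the 16 were detected, against 5 to 12 in primordial libraries. *Fshr*, also on this marker list, had no read. The part of granulosa cells in the differences was not tested.

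In the Wnt list, 20 of 34 genes were estimated higher, with a median log2 fold change of 0.63, and 8 had p under 0.05 with a higher and 1 with a lower estimate, against 10.3% and 4.17% of all genes. *Wnt5a*, a ligand of the non-canonical branch, had 0 to 18 reads (median 0) in primordial and 0 to 3173 (median 101.5) in primary libraries, with a log2 fold change of 7.58 ± 2.24 (SE; edgeR adjusted p = 0.206). Its highest count was in primary *in vivo* 2, and without that library its log2 fold change was 4.25 (edgeR adjusted p = 0.573). *Lgr5*, the R-spondin receptor that is also a pregranulosa marker, had at most 1 primordial read and 0 to 6846 primary reads (median 30.5), at least 347-fold higher, with 97.9% of its summed level in 1 library. *Dvl1*, which relays the signal of Frizzled receptors, had 0 to 237 reads (median 4) against 0 to 7173 (median 3063.5). Its primary libraries were all between 623 and 7173 reads except *in vivo* 1 with none, and its edgeR adjusted p was 0.224 with all libraries and 0.330 without primary *in vivo* 2. *Sfrp1*, a secreted antagonist, was the 1 gene with a lower estimate, at 0 to 3091 (median 602) against 0 to 249 reads (median 9.5; edgeR adjusted p = 0.253). The number with p under 0.05 and a higher estimate was 5 without primary *in vivo* 2, primordial *in vitro* 1 or primordial *in vitro* 3, and 4 without primordial *in vitro* 2.

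The cell cycle list was close to even, with 25 of 46 genes estimated higher and a median log2 fold change of 0.24, the same as over all genes. Those with p under 0.05 were 6 and all had higher estimates, against 10.3% of all genes with p under 0.05 and a higher estimate. *Cdk7*, the kinase that activates other cyclin-dependent kinases and also phosphorylates RNA polymerase II, had 0 to 48 reads (median 7.5) against 0 to 2560 (median 248), and 5.27 ± 1.87 (SE; edgeR adjusted p = 0.224). *Rbl2*, a pocket protein that holds cells out of the cycle, had 0 to 106 reads against 0 to 1824, with a log2 fold change of 4.87 with all libraries and 4.75 without primary *in vivo* 2, where its unadjusted p was over 0.05. *Cdc25a*, the phosphatase that releases CDK2, had 12 to 618 reads (median 68) against 0 to 2178 (median 1113.5; edgeR adjusted p = 0.333). *Cdk2* itself had 0 to 4709 against 0 to 21600 reads, and its log2 fold change was 2.23 with all libraries and 4.21 without primordial *in vitro* 2. The count of 6 was 2 to 8 with any 1 library left out, and it was 3 without primordial *in vitro* 1 or 2 and 2 without primordial *in vitro* 3.

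The lists of protein synthesis and of the respiratory chain had similar numbers of higher and lower estimates. Of 46 cytosolic ribosome genes, 25 were estimated higher and 21 lower, 0 had p under 0.05 and the median log2 fold change was 0.10. *Rpl9* had 2232 to 25972 reads in primordial and 2532 to 78780 in primary libraries (1.07 ± 0.78, SE). Of 40 genes of the respiratory chain and ATP synthase, 18 were estimated higher and 22 lower. Those with p under 0.05 were 2, both with a higher estimate, against 10.3% of all genes. These were *Atp5g1*, described above, and *Atp5o*, whose log2 fold change was 4.78 with all libraries and 2.61 without primary *in vivo* 2, where its unadjusted p was over 0.05. In the glycolysis and redox list 31 of 38 genes were estimated higher, against 8352 of 15317 over all genes, with a median of 0.67. Those with p under 0.05 were 3, all with a higher estimate, against 10.3% of all genes. With 1 library left out, 26 (without primary *in vivo* 1) to 32 (without primordial *in vitro* 3) were estimated higher. The list's summed level was 6545 CPM in primary *in vivo* 1, against 2154 to 3577 CPM in the other primary libraries. *Hk2*, the inducible hexokinase, had at most 1 primordial read and 0 to 5752 primary reads (median 105), at least 360-fold higher. It was detected in 3 primary libraries, with 79.5% of its summed level in primary *in vitro* 2 and a log2 fold change of 0 *in vivo*. *Aldoc* and *Eno3*, isoforms of aldolase and enolase, had no primordial read and up to 1025 and 181 primary reads, with medians of 2.5 and 0, so that few primary libraries carried them. For *Eno3* the log2 fold change *in vivo* was also 0, and 81.6% of its summed level was in primary *in vitro* 3.

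Of the remaining lists, tubulins had 14 of 22 genes estimated higher, heat shock and folding genes 19 of 34, histone and chromatin genes 20 of 29, and genes of DNA damage response and survival 13 of 27. *Tuba4a*, *Tubb2a* and *Tuba1b* had primary medians of 5628, 33243.5 and 31325 reads, and their log2 fold changes were 1.60, 1.66 and 1.62 with all libraries and 5.97, 5.21 and 2.19 without primordial *in vitro* 2. *Dnmt1*, the maintenance DNA methyltransferase, had 5 to 10238 reads (median 263.5) against 1530 to 5597 (median 3585.5), and *Tet3*, the oxidase of methylated cytosine that the egg stores, had 35 to 66676 against 6520 to 32985. Their log2 fold changes were 2.16 and 1.19 with all libraries and 3.85 and 3.35 without that library. *Dnmt3b*, a de novo methyltransferase, was the chromatin gene with a lower estimate and unadjusted p under 0.05, at 0 to 414 against 0 to 35 reads. *Hspa2*, the germ cell HSP70, had 115 reads in primordial *in vivo* 2, none in the other primordial libraries, and 0 to 10215 (median 1343) in primary libraries (edgeR adjusted p = 0.214). *Brca1*, of homologous recombination repair, had 3 to 59 reads (median 5) against 7 to 1090 (median 125; edgeR adjusted p = 0.286), and *Bcl2l1*, the survival factor BCL-XL, had 0 to 649 against 0 to 4902 (edgeR adjusted p = 0.295). No gene of these lists passed the adjusted threshold.

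The genes with the highest levels were shared by the stages. The 10 genes with the highest mean CPM included *Actb*, *Ahnak*, *Usp9x*, *Eif4g2*, *Ppia*, *Ubb*, *Huwe1*, *Son* and *Neb*. *Actb* had 155541 to 565571 reads in primordial and 287907 to 787415 in primary libraries, a log2 fold change of 0.17 ± 0.36 (SE). *Neb*, nebulin, a protein of muscle thin filaments (chr2:52136647-52378474), was the one of the 10 with p under 0.05. It had 10901 to 376268 primordial reads (median 107786.5) and 6608 to 61713 primary reads (median 21909.5), and -1.88 ± 0.55 (SE; edgeR adjusted p = 0.206). Its exons share bases with *Gm13522* on the opposite strand. Over the 1869 genes detected in all 12 libraries, the median SE of the log2 fold change was 1.24 and the median of its absolute value was 0.66.

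Markers of other ovarian cells moved with the stage in part. Over all genes tested, 54.5% were estimated higher (51.8% without primary *in vivo* 2), and 10.3% had p under 0.05 with a higher estimate. Of 5 theca and steroid cell markers tested, 4 were estimated higher, 3 with p under 0.05 (5 and 2 without primary *in vivo* 2), and their summed level was 0.0719 to 40.0 CPM in primordial and 3.04 to 79.9 CPM in primary libraries. *Hsd3b1*, a steroid dehydrogenase, had at most 2 primordial and 2 to 210 primary reads (edgeR adjusted p = 0.214). Of 5 red blood cell markers, all were estimated higher, 3 with p under 0.05, with sums of 0 to 76.2 CPM against 0 to 2474 CPM. Without primary *in vivo* 2, 4 of these markers were tested, 2 were estimated higher and 2 lower, 2 of the higher ones had p under 0.05, and the median log2 fold change was 1.82, against 6.22 with all libraries. Of 6 smooth muscle markers, 5 were estimated higher and 3 had p under 0.05, and without primary *in vivo* 2 these numbers were 2 and 0. The stroma list had 6 of 10, the immune list 5 of 6 and the surface epithelium list 4 of 6 genes estimated higher, each with 1 under p of 0.05. Without primary *in vivo* 2 these were 3 of 10 for stroma, 2 of 5 for immune cells and 4 of 6 for surface epithelium, each with 0 under p of 0.05, and the medians of the stroma and immune lists were then -0.92 and -2.62, against 0.43 and 2.16 with all libraries. Of 4 endothelial genes, 1 was estimated higher and *Tek* lower (0 to 12584 against no read, edgeR adjusted p = 0.206). The sums were 0 to 905 CPM against 0.186 to 81.5 CPM for endothelium, 0 to 0.791 against 0 to 21.3 CPM for immune cells, 1604 to 9878 against 961 to 26007 CPM for stroma, and 0 to 200 against 0 to 1855 CPM for surface epithelium. Without primary *in vitro* 2, which held the highest surface epithelium sum, 3 of 6 genes of that list were estimated higher. Their median was then -0.65, against 1.76 with all libraries. Without primordial *in vitro* 1, 0 of 4 endothelial genes were estimated higher. Without primary *in vivo* 1, all 5 red blood cell markers were still estimated higher, 3 with p under 0.05.

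The stage difference was then set side by side in the 2 growth conditions, which share no library. Of 15317 genes, 6884 (44.9%) had the same sign *in vivo* and *in vitro*. A gene with an estimate of 0 in either condition, as *Hk2* and *Eno3* *in vivo*, was not counted as having the same sign. The remaining genes were therefore not all opposite in sign, and the median estimate *in vivo* was itself 0. Across genes Pearson's r was 0.022 and Spearman's rho 0.023, where genes are not independent replicates and share libraries and depth. Over the 8822 genes detected in at least 6 libraries, 50.8% had the same sign. The difference between the growth conditions, tested as the interaction, gave 0 calls (0%) with edgeR, a smallest adjusted p of 0.0846 and 1725 genes (11.3%) with unadjusted p under 0.05, whereas DESeq2 called 555. Of 2262 genes with p under 0.05 *in vivo* and 2108 *in vitro*, 410 were in both, and 222 of these had the same sign.

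For the oocyte growth list, 24 of 27 genes were estimated higher *in vivo*, with a median log2 fold change of 3.24, against a median of 0.00 over all genes. *In vitro*, 12 of 27 were estimated higher and the median was -0.12, against 0.43 over all genes. Without primordial *in vitro* 2, 25 of 27 were estimated higher *in vitro* and the median was 1.94, against 1.40 over all genes. *Gdf9* had a log2 fold change of 4.24 *in vivo*, -0.54 *in vitro* and 5.62 *in vitro* without that library. The glycolysis and redox list had 28 of 38 genes estimated higher *in vivo* and 26 *in vitro*, with medians of 0.98 and 0.18. The TGF-β and BMP list had 21 and 29 of 40, with medians of 0.22 and 1.39. The Wnt list had 16 and 22 of 34, with medians of -0.52 and 1.85. Over all genes, 44.4% were estimated higher *in vivo* and 55.8% *in vitro*, with medians of 0.00 and 0.43. The sign was the same in both conditions for 18 of 38, 19 of 40 and 14 of 34 genes of these lists, with estimates of 0 treated as above.

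**Figure D5:**
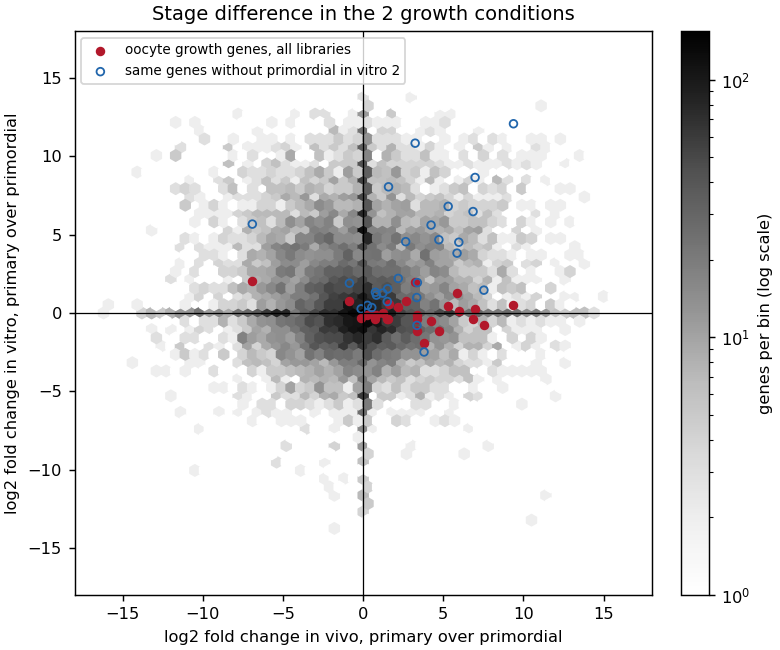
Log2 fold change of primary over primordial follicles *in vivo* (horizontal) and *in vitro* (vertical), with grey bins shaded by the number of genes on a log scale. The 27 oocyte growth genes (red, all libraries) spread along the horizontal axis, with a median of 3.24 *in vivo* and -0.12 *in vitro*, and without primordial *in vitro* 2 (open blue) their *in vitro* median is 1.94.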

How the data were processed

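RNA sequencing of laser-captured oocytes was analysed from deposited tables. Per the labels the authors used Trim Galore 0.4.1 for trimming, TopHat2 for alignment to mm10 and featureCounts for counting, and they deposited raw counts per gene as well as TPM values for part of the genes. The RNA had been amplified before library preparation, and strandedness and the treatment of multi-mapping reads are not given in the sources used here, so counts of overlapping, antisense and multigene family members are uncertain. Of 53715 genes, 53620 were matched by identifier to GENCODE release 21 (GRCm38, mm10) for symbols, positions and overlaps.

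Genes with at least 10 reads in total over the 12 libraries were tested with edgeR 4.0.16 in R 4.3.3 (TMM normalization, robust quasi-likelihood fit, growth and stage as terms), and within-growth and interaction contrasts came from a model with both terms and their product. Calls required p under 0.05 after Benjamini-Hochberg adjustment and at least a fold of 2. Alternatives were DESeq2 1.42.0, limma 3.58.1 on counts and on log2(TPM + 1) or log2(TPM + 0.1), other scalings and filters, a replicate block and leaving out each library. A fold against a stage with at most 3 reads in every library was set against 3 reads per library. Named genes were the 10 with the smallest p in each direction, the 10 with the highest mean CPM, up to 10 detected in all libraries of one stage and at most 1 of the other, the 3 with the smallest p of each list and the oocyte markers. Other names belong to the lists and were picked after their values were seen. Results for some genes are not reported here. The comparison, the lists and the rule were chosen with earlier results of these data known. The fits were tested on simulated data.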

Additional observations from a re-analysis of the deposited data

Results flagged for a closer look

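Within the 6 libraries of a stage, each gene of the naming rule, each oocyte growth gene and 3 measures of the library (reads, genes detected and the share of the 10 highest genes) were searched for a single library whose gap to the nearest of the others, as a share of the whole range on the log2 CPM scale for genes, exceeded Dixon's critical value. Of 209 sets of 6 values, 38 did so, all of them genes. The rate of about 1 in 20 by chance holds for normally distributed values, so the 38 cannot be set against it. A set with 1 library above 0 and the others at 0, as *Bmp4* with 4 reads, always passes. Genes named for detection in at most 1 primordial library, as *Mrpl52* and *Cdo1*, were chosen in a way that favours a lone high primordial value. Groups with no library over 3 reads were not searched.

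Of the 38, 9 were high values in the library labelled primordial *in vitro* 2. They were *Fgf8* with 1334 reads, *Npm2* with 915, *Zp3* with 2108, *Oosp1* with 53, *Omt2b* with 48, *Nlrp2* with 33, *Oog4* with 22, *Zar1l* with 5 and *Cdo1* with 150. The other primordial libraries had at most 4 reads of each except *Zp3*, which had 45 to 121.

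Among the other primordial libraries, *in vivo* 2 was high for *Shf* (10 reads), *Gadd45g* (541), *Bmp4* (4), *Hspa2* (115), *Nbeal2* (14) and *Ccdc92* (10). High values also stood alone for *Omt2a* in *in vivo* 1 (45), *Mrpl52* in *in vivo* 3 (16), *Mpdu1* in *in vitro* 1 (10) and *Zbtb41* in *in vitro* 3 (32). The library *in vitro* 1 was alone in lacking *Psd2* (0, against 366 to 4386) and *Sohlh1* (0, against 29 to 72).

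Among primary libraries, *in vivo* 1 stood apart for *Ppia* (418792 reads, against 71150 to 134018) and at the low end for *Son* (8751), *Dvl1* (0), *Rps14* (0) and *Lhx8* (2). The library *in vivo* 2 was low for *Cntn4* (1) and *Bmp15* (0). The library *in vivo* 3 was low for *Rpl9* (2532) and high for *Spata6* (26), *Tube1* (680) and *Tle6* (241). *In vitro* 1 was high for *Pde4d* (26) and *Psd2* (131), *in vitro* 2 was high for *Clybl* (12) and *Hspa1b* (1444) and low for *Nudt21* (23), and *in vitro* 3 was high for *Tuba8* (1065). No gene named in the report differed between the growth conditions at an interaction adjusted p under 0.05.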

How the results depend on the processing

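The number of genes called between the stages was 0 under 25 of 31 alternatives. It was 347 with DESeq2, 1126 with DESeq2 without its filters, 24 (17 higher, 7 lower) without the filter on low counts, 9 with limma-voom and 4 with a replicate block within growth. Leaving out each library gave 0 to 1 call, the 1 (*Tubb3*) without primordial *in vitro* 2, and the number with p under 0.05 was 1795 to 2231. The interaction gave 0 calls, but 555 with DESeq2, 65 with limma-voom, 39 without the filter on low counts, 16 with edgeR's legacy fit, 1 each with DESeq2's size factors, filterByExpr or genes over 3 reads in at least 6 libraries, and 0 to 2 with each library left out (2 without primordial *in vitro* 1 or 3, 1 without *in vitro* 2). The share of genes with the same sign in both growth conditions was 50.6% over genes with over 3 reads in at least 6 libraries, and 40.5% (without primary *in vivo* 2) to 48.1% with each library left out. Genes with an estimate of 0 in either condition were again not counted as having the same sign. The ratio of distances was 0.991 to 1.07 with each library left out. It fell below 1 at 0.992 without primary *in vitro* 1 and 0.991 without primary *in vitro* 3, and had p = 0.01 (exact one-sided permutation test) without primary *in vivo* 2. The difference in detected genes was 418 to 1778 and never passed its test. The cause of these changes was not tested.

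The labels do not say whether libraries of the same replicate number belong together. The deviations of same-numbered libraries of the stages from their group means correlated at -0.027 to 0.090. With so large a spread between libraries, these values cannot show whether the samples were paired. With the number as a replicate block the stage comparison and the interaction gave 0 calls, with 1122 genes at p under 0.05 between the stages. With the number as a block within growth the stage comparison gave 4 calls, all higher, with 787 genes at p under 0.05. Estimates were higher in primary follicles for 54.5% of genes, against 58.1% scaled by library size alone and 64.3% with limma-voom. Over 92 named genes, 2814 alternative values held 0 calls in the opposite direction, and 25 uncalled values had the opposite sign. Genes with few reads, and those read mainly from 1 library, limit every comparison here.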

Other observations

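Some of the genes whose stages did not overlap in any library are named here after their values were seen, and all values are mean CPM ± SD over the 6 libraries of a stage. None of those named passed the adjusted threshold of edgeR. They were chosen because the stages did not overlap, so a difference between their means follows from the choice and nothing is read from it. The 10 genes that were lower in every primary library (0.0653% of the 15317 tested) included several of high level. *Pi4ka*, a phosphatidylinositol 4-kinase, had 1827 ± 679 CPM in primordial and 567 ± 165 CPM in primary libraries, and *Ap2b1*, a subunit of the clathrin adaptor, had 1243 ± 716 against 366 ± 169. *Jarid2*, which recruits Polycomb repressive complex 2, had 503 ± 242 against 96.0 ± 46.0, *Leng8* 536 ± 208 against 104 ± 56.7, and *Ablim1*, an actin-binding protein, 385 ± 173 against 119 ± 82.3.

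The genes that were higher in every primary library numbered 22 (0.144% of the 15317 tested), chosen in the same way. Of these, *Sar1a*, a GTPase of transport vesicles leaving the endoplasmic reticulum, had 1.80 ± 3.96 CPM in primordial and 116 ± 55.3 CPM in primary libraries. *Kif23*, a kinesin of cell division, had 11.6 ± 12.4 against 167 ± 237, and *Celsr1*, a cadherin of planar cell polarity, had 11.7 ± 9.56 against 145 ± 99.8. *Spc25* and *Ska3*, which encode kinetochore proteins, were low at both stages, with 0.0347 ± 0.0539 against 6.34 ± 14.1 CPM and 0.00618 ± 0.0151 against 0.828 ± 1.04 CPM.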
